A study of Mus musculus with 8 samples.

Results

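Aminoacyl-tRNA synthetases are the enzymes that load each amino acid onto its tRNA, and the 36 genes listed for them were all present in the deposited table of 24081 gene names. They were taken by gene name, 20 that serve the cytosol and 16 that serve mitochondria. Gars and Kars are counted with the cytosolic enzymes although each of these genes supplies both compartments. All 36 passed the filter on low counts, among 11291 genes that did.

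The cells were 2 stable lines made from WEHI-231, a mouse lymphoma line with the features of an immature B cell, in which crosslinking of the surface B cell receptor stops growth and leads to death. The 4 groups were the WEHI-miR-148a line with anti-IgM at 2 ug/ml for 14 h, the same line unstimulated, the WEHI-control line with the same anti-IgM treatment, and the WEHI-control line unstimulated, with 2 libraries each. Anti-IgM is an antibody that binds the receptor and crosslinks it. The labels do not say what the control line carries or whether each line is 1 clone, and polyA-selected RNA does not measure the mature microRNA. Comparisons asked what anti-IgM did in each line and how the lines differed in each condition.

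Libraries held 5810227 to 18660373 counts, and 3 counts were worth 0.166 to 0.502 CPM, the unit of normalised expression used here (a count relative to library size after TMM scaling); all synthetase genes lay above this floor in every library. The 6 B cell markers in the table summed to 1855 to 2621 CPM per library. T cell, fibroblast and erythroid markers summed to at most 2.12 CPM. Of 7 myeloid markers 3 were at 0 in all libraries, and the list summed to 11.8 and 14.8 CPM in the anti-IgM and 2.54 and 3.14 CPM in the unstimulated libraries of the miR-148a line, and to 7.03 and 10.3 against 2.88 and 3.88 CPM in the control line. Itgam, the integrin chain CD11b, made up most of the myeloid sum with anti-IgM (up to 8.86 CPM), and its part in the results below was not tested.

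Each synthetase activates an amino acid with ATP and joins it to the matching tRNA, and the enzymes fall into class I and class II by the fold of the catalytic domain. In mammals several cytosolic synthetases, with the scaffold proteins encoded by Aimp1, Aimp2 and Eef1e1, form the multi-synthetase complex. Uncharged tRNA activates the kinase GCN2, which raises translation of the transcription factor ATF4, and ATF4 drives many cytosolic synthetase genes together with asparagine synthetase, Asns. Mitochondria use a separate set of enzymes for most amino acids, encoded in the nucleus.

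The promoters of 6 cytosolic members are shown. They include the 4 cytosolic genes that fell most in the miR-148a line among those with an entry in the promoter table (Yars, Iars, Tars and Aars). Gars is shown for a looser match, and Qars because its change with anti-IgM was near 0. Eprs, which fell about as much as Gars, had an entry without a match and is not shown. Each runs from 250 bases before to 50 bases after the RefSeq start (GRCm38.p6), and 27 of the 36 genes had an entry. Capitals mark TGATGCAA, the sequence that ATF4 with a C/EBP partner is known to bind, its looser form TGATGNAA, which contains it, and CACGTG, the E-box bound by MYC with MAX, each on either strand.
Aars, chr8:111033592-111033891, plus strand: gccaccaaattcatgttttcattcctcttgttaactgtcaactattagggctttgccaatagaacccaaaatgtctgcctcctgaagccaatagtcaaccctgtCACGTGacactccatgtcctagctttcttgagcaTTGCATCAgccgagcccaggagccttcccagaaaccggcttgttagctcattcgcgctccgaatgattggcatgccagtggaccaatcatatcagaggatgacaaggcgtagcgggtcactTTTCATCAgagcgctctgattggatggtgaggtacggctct
Iars, chr13:49681880-49682179, plus strand: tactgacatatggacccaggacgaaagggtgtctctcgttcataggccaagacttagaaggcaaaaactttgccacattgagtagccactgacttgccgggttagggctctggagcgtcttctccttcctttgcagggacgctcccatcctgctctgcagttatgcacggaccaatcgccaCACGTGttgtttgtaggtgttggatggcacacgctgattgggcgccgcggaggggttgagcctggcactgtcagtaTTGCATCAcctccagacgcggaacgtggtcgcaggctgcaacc
Tars, chr15:11399609-11399908, minus strand: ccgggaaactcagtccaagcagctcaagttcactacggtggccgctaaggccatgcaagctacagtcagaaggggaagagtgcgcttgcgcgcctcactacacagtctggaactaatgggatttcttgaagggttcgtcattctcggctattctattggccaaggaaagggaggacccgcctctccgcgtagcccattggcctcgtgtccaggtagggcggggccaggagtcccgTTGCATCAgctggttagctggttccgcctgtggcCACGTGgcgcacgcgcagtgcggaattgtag
Yars, chr4:129189653-129189952, plus strand: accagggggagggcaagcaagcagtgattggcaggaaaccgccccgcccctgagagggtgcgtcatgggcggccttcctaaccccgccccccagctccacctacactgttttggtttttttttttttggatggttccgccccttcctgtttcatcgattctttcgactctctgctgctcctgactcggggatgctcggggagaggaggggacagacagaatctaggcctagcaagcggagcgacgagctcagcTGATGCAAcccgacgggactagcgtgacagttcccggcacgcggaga
Gars, chr6:55037751-55038050, plus strand: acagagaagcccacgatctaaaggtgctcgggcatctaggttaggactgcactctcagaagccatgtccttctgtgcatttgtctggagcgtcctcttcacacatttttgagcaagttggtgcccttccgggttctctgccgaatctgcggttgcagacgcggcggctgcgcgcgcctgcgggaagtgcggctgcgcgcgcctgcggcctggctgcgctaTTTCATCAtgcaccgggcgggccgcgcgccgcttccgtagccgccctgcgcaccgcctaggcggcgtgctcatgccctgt
Qars, chr9:108507755-108508054, plus strand: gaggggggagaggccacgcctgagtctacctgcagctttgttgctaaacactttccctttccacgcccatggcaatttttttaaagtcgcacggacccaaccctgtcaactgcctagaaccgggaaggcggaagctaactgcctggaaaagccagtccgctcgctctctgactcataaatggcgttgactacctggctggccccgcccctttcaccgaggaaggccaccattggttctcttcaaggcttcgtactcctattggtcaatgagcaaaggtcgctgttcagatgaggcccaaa

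TGATGCAA stood in the promoters of Aars, Iars, Tars and Yars, 4 of 13 cytosolic genes and 0 of 14 mitochondrial genes with an entry, against 0.747% of 8571 tested genes and 1.03% of all 27025 genes in the table. Its first base lay at -112 in Aars, 8 in Iars, -15 in Tars and 4 in Yars, counted from the start site. TGATGNAA added Gars, at -30, and a second match in Aars, at 10, and was found in 2.68% of tested genes. CACGTG stood in Aars, Iars, Tars, Farsb and Ears2, against 12.1% of tested genes. Of the cytosolic genes with an entry, Dars, Eprs, Farsa, Kars, Mars, Qars and Sars held none of these sequences. Eprs and Mars among them had log2 fold changes of -0.76 and -0.66 with anti-IgM in the miR-148a line. These are matches of letters, and none is shown here to be bound.

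Before stimulation the cytosolic enzymes were more abundant per length than the mitochondrial ones. In RPKM, counts scaled to the library and to the length of the main coding transcript, the 20 cytosolic genes ranged from 48.9 to 204 (median 87.6) in unstimulated control cells and the 16 mitochondrial genes from 2.47 to 31.6 (median 7.95), with no overlap. The order was led by Gars, the glycyl enzyme, at 204 ± 0.394 RPKM and Nars, the asparaginyl enzyme, at 201 ± 9.68 RPKM (SD, n = 2), and these neighbours did not differ beyond their spread. Tars2, for mitochondrial threonine, led its set at 31.6 ± 1.55 RPKM, and Pars2, for mitochondrial proline, was lowest at 2.47 ± 0.219 RPKM. Lengths come from the annotation and not from these libraries, so levels between genes are approximate.

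Most cytosolic synthetase transcripts fell with anti-IgM in the miR-148a line. There 16 of the 20 cytosolic and 3 of the 16 mitochondrial genes fell, 19 of 36 members, and 0 rose, beside 14.0% of all tested genes that fell and 14.7% that rose (adjusted p under 0.05 in edgeR's quasi-likelihood test). The median log2 fold change was -0.60 over the cytosolic and -0.12 over the mitochondrial genes, against 0.00 over all genes tested. Both anti-IgM libraries lay below both unstimulated ones in 19 cytosolic and 7 mitochondrial genes, as they did in 32.5% of all genes. With the replicate number, which is the sequencing run, as a block in the fit, 24 members fell (23.3% of all genes) and 2 rose, Fars2 and Sars2 (22.8% of all genes). In these bulk libraries, fewer cells of a kind and less transcript per cell cannot be told apart.

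In the control line 11 members fell with anti-IgM and 0 rose, beside 7.45% of all tested genes that fell and 9.60% that rose. The 11 were Aars, Cars, Eprs, Gars, Iars, Lars, Nars, Tars, Vars and Yars among the cytosolic enzymes and Nars2 among the mitochondrial. Medians were -0.39 over the cytosolic, -0.09 over the mitochondrial and 0.01 over all genes. The groups did not overlap, with anti-IgM lower, in 19 cytosolic and 6 mitochondrial genes, and in 28.3% of all genes. With the block 22 members fell (17.2% of all genes) and 1, Sars2, rose (17.6% of all genes). Leaving out any 1 control library left fewer calls in the control line, among the members and among all genes alike. The cytosolic median of the control line was then -0.41 without anti-IgM replicate 1 and -0.43 without anti-IgM replicate 2. It was -0.38 without unstimulated replicate 1 and -0.43 without unstimulated replicate 2. In the miR-148a line, dropping its anti-IgM replicate 2 or either unstimulated library also left fewer calls among the members and among all genes. The cytosolic median of that line was -0.52 without anti-IgM replicate 2 and -0.77 without anti-IgM replicate 1. It was -0.59 without unstimulated replicate 1 and -0.64 without unstimulated replicate 2.

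**Figure D1:**
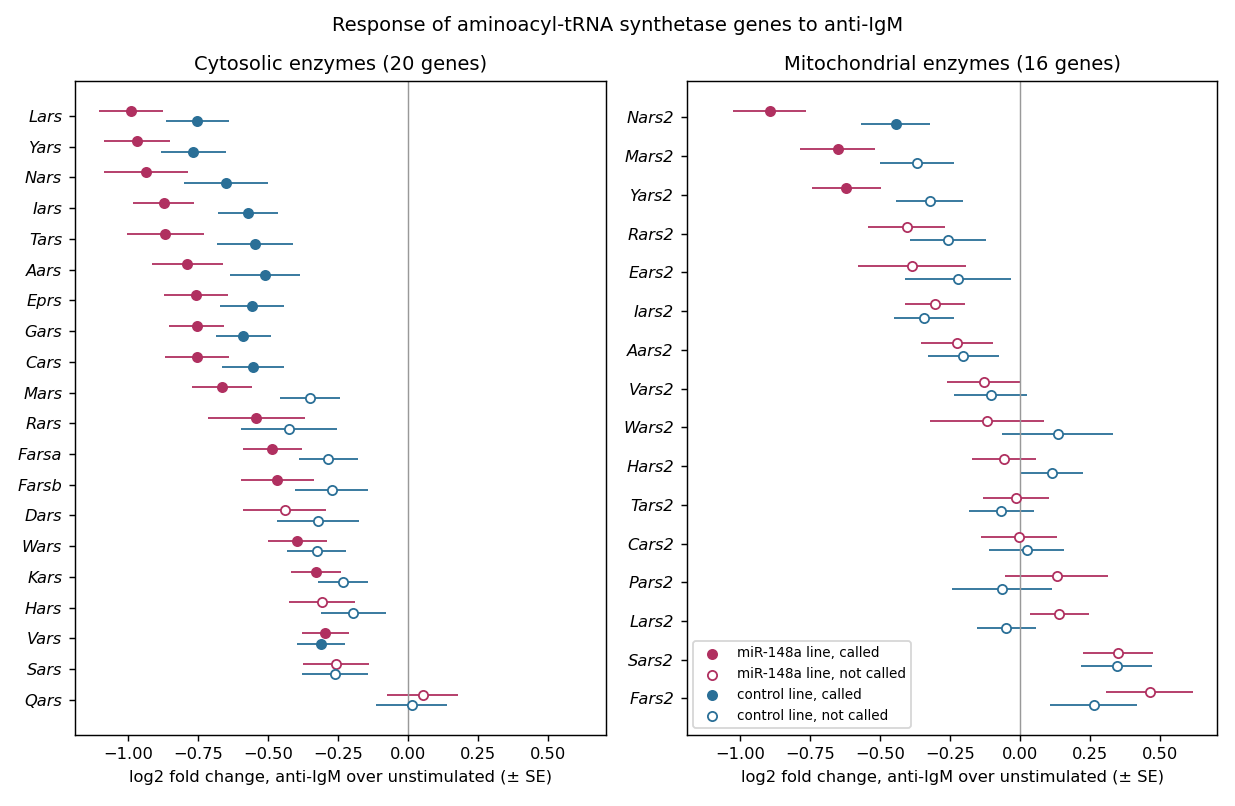
The log2 fold change of each synthetase gene, anti-IgM over unstimulated, with its standard error, for cytosolic (left) and mitochondrial (right) enzymes in the miR-148a line (red) and the control line (blue); filled points have an adjusted p under 0.05. All but 1 of the 20 cytosolic genes, Qars, lie left of 0 in both lines, while the mitochondrial genes spread to both sides.

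Lars, the cytosolic leucyl enzyme of the complex, which in human cells also senses leucine for mTORC1, fell most in the miR-148a line. It stood at 149.5 and 126 CPM with anti-IgM against 291 and 254 CPM unstimulated, a log2 fold change of -0.99 ± 0.12 (SE, adjusted p = 0.000746). In the control line Lars stood at 187 and 182 CPM with anti-IgM against 316 and 305 CPM unstimulated (-0.75 ± 0.11, adjusted p = 0.00408). The groups did not overlap in either line.

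Yars, the tyrosyl enzyme, stood at 104 and 84.2 CPM with anti-IgM against 182 and 185 CPM unstimulated in the miR-148a line (-0.97 ± 0.12, adjusted p = 0.000906). It was the member with the largest fall in the control line, with 123 and 134 CPM against 216 and 223 CPM (-0.77 ± 0.12, adjusted p = 0.00418). Both treated groups lay wholly below their unstimulated groups.

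Nars was among the most abundant members. It stood at 310.0 and 221 CPM with anti-IgM against 543 and 471 CPM unstimulated in the miR-148a line (-0.94 ± 0.15, adjusted p = 0.0025) and at 360.1 and 344 CPM against 571 and 533 CPM in the control line (-0.65 ± 0.15, adjusted p = 0.0208). The 2 anti-IgM libraries of the miR-148a line lay further apart than those of the control line.

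Iars, the isoleucyl enzyme of the complex, stood at 254 and 211 CPM with anti-IgM against 427 and 423 CPM unstimulated in the miR-148a line (-0.87 ± 0.11, adjusted p = 0.00095). Its control line values were 292 and 321 CPM against 450.4 and 461 CPM (-0.57 ± 0.11, adjusted p = 0.0095). The unstimulated libraries of both lines lay close together, and all 4 treated libraries were below them.

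Tars, the threonyl enzyme, stood at 251 and 187 CPM with anti-IgM against 418 and 379.9 CPM unstimulated in the miR-148a line (-0.87 ± 0.14, adjusted p = 0.0023), and at 289 and 320.2 CPM against 446 and 445 CPM in the control line (-0.55 ± 0.14, adjusted p = 0.0274). Gars, mutated in a hereditary neuropathy in people, stood at 283 and 240.2 CPM against 446 and 435 CPM in the miR-148a line (-0.76 ± 0.10, adjusted p = 0.00112) and at 319 and 326 CPM against 486 and 485 CPM in the control line (-0.59 ± 0.10, adjusted p = 0.00606). Eprs, whose single protein charges both glutamate and proline, stood at 386 and 307 CPM against 593 and 577 CPM in the miR-148a line (-0.76 ± 0.11) and at 426 and 444 CPM against 620.2 and 661 CPM in the control line (-0.56 ± 0.11). In each of these 3 genes both lines fell without overlap.

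**Figure D2:**
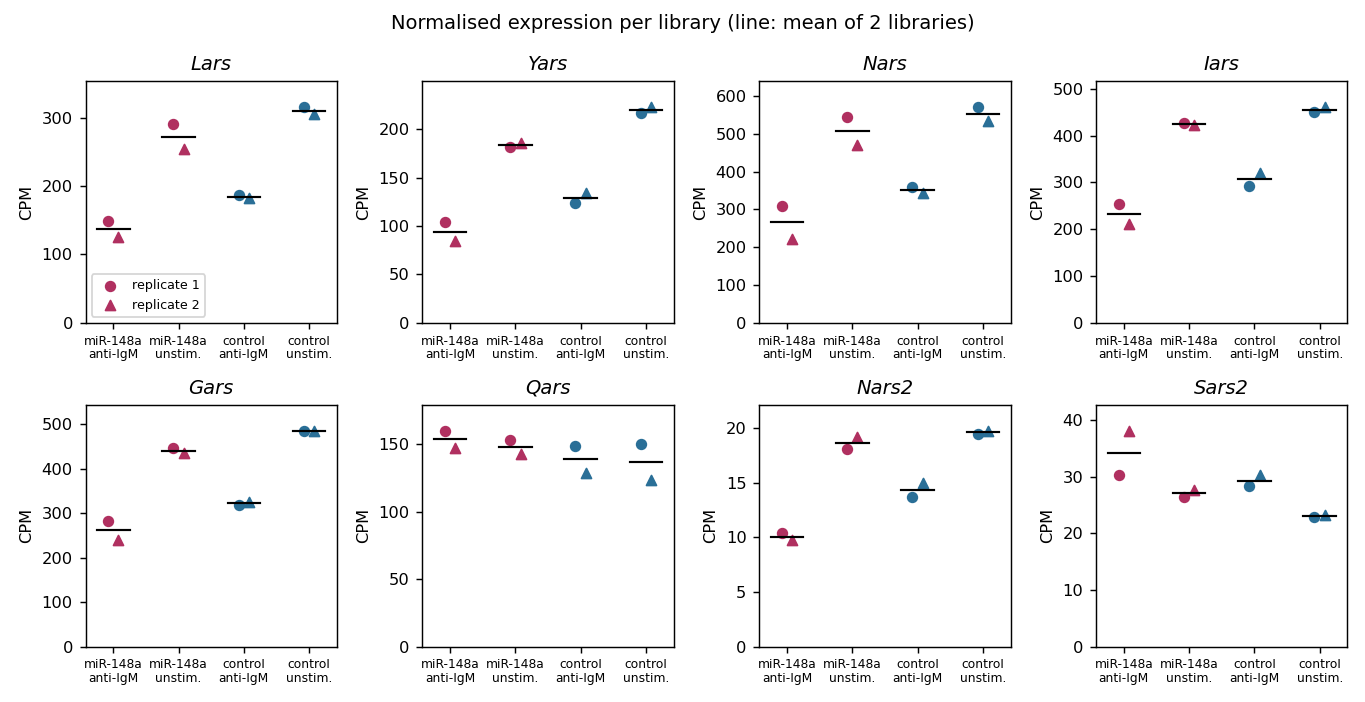
Normalised expression (CPM, axes from 0) of 8 members in each library; columns are the anti-IgM and unstimulated groups of the miR-148a line (red) and then of the control line (blue), circles replicate 1, triangles replicate 2 and bars the mean of 2 libraries. Lars, Yars, Nars, Iars, Gars and Nars2 are lower in both anti-IgM groups, Qars overlaps between groups and Sars2 is higher.

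The other cytosolic members called in both lines were Aars, Cars and Vars. Aars, the alanyl enzyme, had log2 fold changes of -0.79 in the miR-148a and -0.51 in the control line; 15.1% of its exon length overlaps other genes, Exosc6 on the same strand among them. Cars, the cysteinyl enzyme, had -0.75 in the miR-148a and -0.55 in the control line. Vars, the valyl enzyme, stood at 391 and 375 CPM with anti-IgM against 485 and 455 CPM unstimulated in the miR-148a line (-0.29 ± 0.08, adjusted p = 0.0299) and at 378 and 380.5 CPM against 466 and 474 CPM in the control line (-0.31 ± 0.08, adjusted p = 0.0367). Its call was lost under 8 of 16 alternatives in the miR-148a line and 9 of 16 in the control line.

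Called in the miR-148a line alone were Mars, Rars, Farsa, Farsb, Wars and Kars in the cytosol and Mars2 and Yars2 in mitochondria, 8 members, and 0 were called in the control line alone. These calls do not show a difference in response, since the interaction was called for 0 members, and with the block all 8 were called lower in the control line too. Mars, the methionyl enzyme, had log2 fold changes of -0.66 in the miR-148a and -0.35 in the control line; 68 bases of its exons overlap Ddit3 on the other strand. Farsa and Farsb, the subunits of the phenylalanyl enzyme, had -0.48 and -0.47 in the miR-148a line and -0.28 and -0.27 in the control line. Rars, the arginyl enzyme, had -0.54 in the miR-148a line and -0.43 in the control line, and its call in the miR-148a line (adjusted p = 0.0432) was lost under 10 of 16 alternatives.

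Wars, the tryptophanyl enzyme that interferon gamma induces in human cells, stood at 78.3 and 66.7 CPM with anti-IgM against 96.5 and 93.6 CPM unstimulated in the miR-148a line (-0.40 ± 0.11, adjusted p = 0.0231). In the control line it had 81.4 and 84.4 CPM against 105 and 103 CPM (-0.33 ± 0.11, adjusted p = 0.0658), which missed the threshold. Kars, the lysyl enzyme, stood at 187 and 176 CPM against 225 and 232 CPM in the miR-148a line (-0.33 ± 0.09, adjusted p = 0.0234) and at 219.8 and 215 CPM against 251 and 259.6 CPM in the control line (-0.23 ± 0.09, adjusted p = 0.109). In both genes the treated libraries lay below the unstimulated ones in each line.

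Of the cytosolic genes called in neither line, Qars, the glutaminyl enzyme of the complex, had changes near 0. It stood at 159.9 and 147 CPM with anti-IgM against 153 and 142.8 CPM unstimulated in the miR-148a line (0.05 ± 0.13, adjusted p = 0.791) and at 149 and 129 CPM against 150.3 and 124 CPM in the control line (0.01 ± 0.13, adjusted p = 0.959). Its groups overlapped in both lines. Dars, Hars and Sars, for aspartate, histidine and serine, had log2 fold changes of -0.44, -0.31 and -0.26 in the miR-148a line and -0.32, -0.20 and -0.26 in the control line; Hars shares 195 exon bases with Hars2 on the other strand. With the block Dars and Sars were called lower in both lines and Hars in the miR-148a line.

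Summed over the 20 cytosolic genes, synthetase transcripts came to 3970 and 3297 CPM with anti-IgM against 5751 and 5410 CPM unstimulated in the miR-148a line, and to 4361 and 4430 CPM against 6079 and 6017 CPM in the control line. The 16 mitochondrial genes summed to 474 and 451 CPM against 524 and 522 CPM in the miR-148a line, and to 499 and 504 CPM against 568 and 541 CPM in the control line. Treated groups lay below unstimulated groups in all 4 cases, by a larger share for the cytosolic set.

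**Figure D3:**
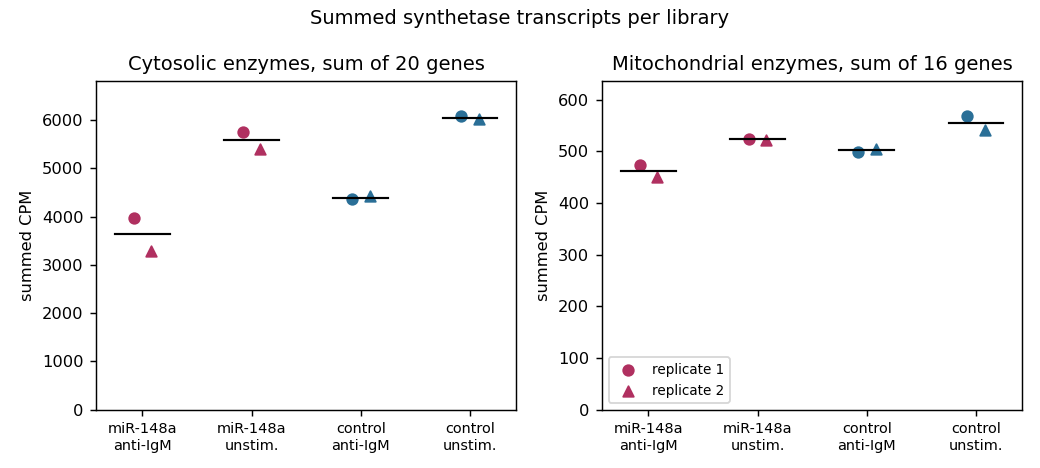
Summed CPM of the 20 cytosolic (left) and 16 mitochondrial (right) synthetase genes in each library, axes from 0, with the anti-IgM and unstimulated groups of the miR-148a line (red) followed by those of the control line (blue); circles are replicate 1, triangles replicate 2 and bars means of 2. The lowest cytosolic sum is 3297 CPM, in anti-IgM replicate 2 of the miR-148a line.

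The mitochondrial enzymes did not move as 1 group. Nars2, for asparagine, stood at 10.4 and 9.78 CPM with anti-IgM against 18.1 and 19.2 CPM unstimulated in the miR-148a line (-0.89 ± 0.13, adjusted p = 0.0016) and at 13.7 and 15.0 CPM against 19.5 and 19.8 CPM in the control line (-0.44 ± 0.12, adjusted p = 0.0398). Mars2, for methionine, stood at 21.1 and 22.0 CPM against 30.5 and 37.2 CPM in the miR-148a line (-0.65 ± 0.13, adjusted p = 0.00728) and at 25.4 and 26.1 CPM against 30.9 and 35.8 CPM in the control line (-0.37 ± 0.13, adjusted p = 0.0905). Yars2, for tyrosine, fell by 0.62 in the miR-148a line (adjusted p = 0.0064) and had -0.32 in the control line. In these 3 genes the groups did not overlap in either line. The control line call of Nars2 was lost under 10 of 16 alternatives.

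Sars2 and Fars2 had positive changes in both lines, without passing the test. Sars2, for serine, stood at 30.3 and 38.1 CPM with anti-IgM against 26.4 and 27.7 CPM unstimulated in the miR-148a line (0.35 ± 0.13, adjusted p = 0.0661) and at 28.3 and 30.3 CPM against 22.9 and 23.3 CPM in the control line (0.35 ± 0.13, adjusted p = 0.0974). Fars2, for phenylalanine, had 0.46 ± 0.16 (adjusted p = 0.0531) and 0.26 ± 0.15 (adjusted p = 0.278) in the miR-148a and control lines; 10.7% of its exon length overlaps Lyrm4 and Nrn1 on the other strand. With the block Sars2 was called higher in both lines and Fars2 in the miR-148a line.

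Lars2, for mitochondrial leucine, stood at 29.8 and 29.5 CPM with anti-IgM against 25.9 and 27.8 CPM unstimulated in the miR-148a line (0.14 ± 0.11, adjusted p = 0.353) and at 29.5 and 27.4 CPM against 30.3 and 28.2 CPM in the control line (-0.05 ± 0.11, adjusted p = 0.797). The control groups overlapped. The remaining 10, Aars2, Cars2, Ears2, Hars2, Iars2, Pars2, Rars2, Tars2, Vars2 and Wars2, were called in neither line, at -0.40 (Rars2) to 0.13 (Pars2) in the miR-148a line and -0.34 (Iars2) to 0.14 (Wars2) in the control line. With the block Iars2 was called lower in both lines and Rars2 in the miR-148a line; 24.2% of the exon length of Iars2 overlaps genes on the other strand.

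Set side by side for the same amino acid, the cytosolic enzyme had the lower log2 fold change in 17 of 17 pairs in the miR-148a line and in 16 of 17 in the control line, where Mars (-0.35) and Mars2 (-0.37) were the exception. The 17 pairs cover 16 amino acids, since Farsa and Farsb share Fars2, and Eprs stands against both Ears2 and Pars2. The widest gap in the miR-148a line was between Lars (-0.99) and Lars2 (0.14). The narrowest were Mars (-0.66) with Mars2 (-0.65) and Nars (-0.94) with Nars2 (-0.89).

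**Figure D4:**
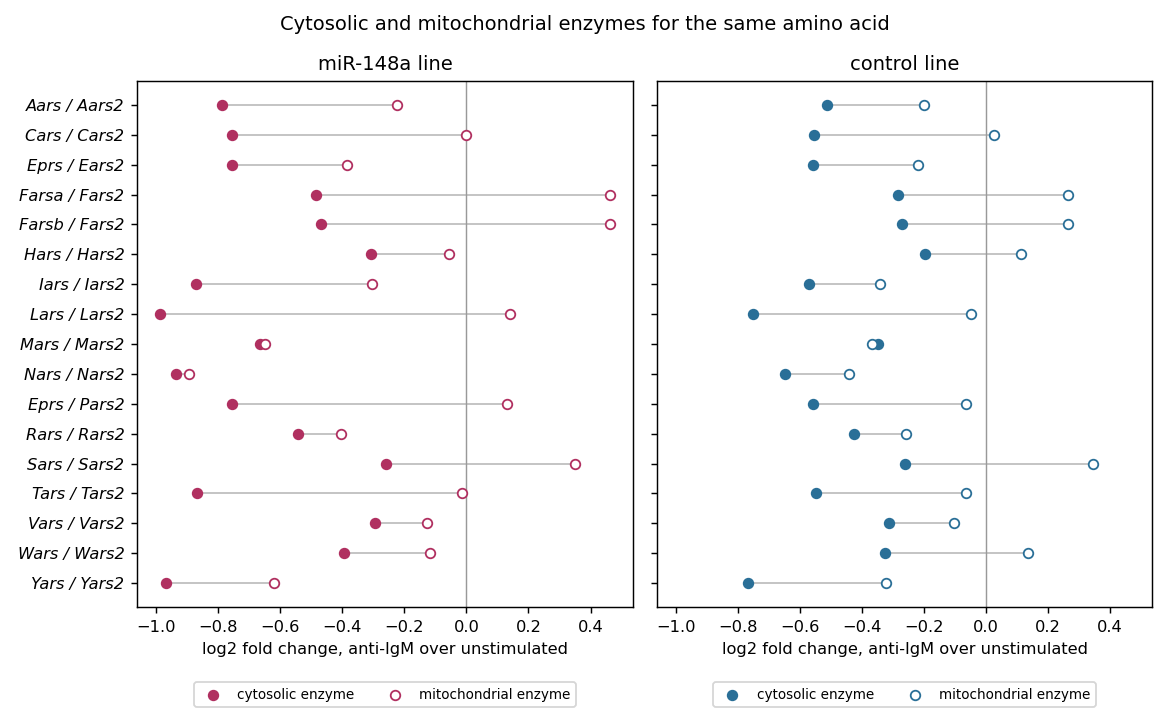
The log2 fold change, anti-IgM over unstimulated, of the cytosolic (filled) and mitochondrial (open) enzyme for the same amino acid, joined by a line, in the miR-148a line (left) and the control line (right). The filled point is the left one in every pair except Mars and Mars2 in the control line.

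Grouped by what is known of their control, 11 of 12 cytosolic genes listed as ATF4-linked fell in the miR-148a line (median -0.77), as did 5 of 8 others (median -0.39); in the control line the counts were 9 of 12 (median -0.56) and 1 of 8 (median -0.28). The exception in the miR-148a line was Sars. Of the multi-synthetase complex, 6 of 8 members fell in the miR-148a line (median -0.60), as did 10 of 12 cytosolic genes outside it (median -0.62), and in the control line 3 of 8 and 7 of 12 fell. Class I and class II enzymes fell in 8 of 9 and 7 of 10 cases in the miR-148a line, and in 5 of 9 and 4 of 10 in the control line, with Eprs, which holds a domain of each class, left out. Over all genes tested, 14.0% fell in the miR-148a line and 7.45% in the control line. With the block the miR-148a line counts were 12 of 12 for the ATF4-linked genes and 7 of 8 for the others, 7 of 8 in the complex and 12 of 12 outside it, and 8 of 9 in class I and 10 of 10 in class II, beside 23.3% of all genes. The control line counts with the block were 12 of 12 and 6 of 8, 7 of 8 and 11 of 12, and 8 of 9 and 9 of 10 in the same order, beside 17.2% of all genes. No difference between these groups was tested.

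Regulators were described from a list as well. Of 12 genes listed around ATF4 and Myc, 6 fell in the miR-148a line (median -0.41), beside 14.0% of all genes. In the control line 5 fell (median -0.29), beside 7.45% of all genes. In each line 0 rose, beside 14.7% and 9.60% of all genes in the miR-148a and control lines. With the block 7 fell in the miR-148a line and 6 in the control line, beside 23.3% and 17.2% of all genes. Atf4 stood at 269 and 198 CPM with anti-IgM against 465 and 483 CPM unstimulated in the miR-148a line (-1.02 ± 0.14, adjusted p = 0.0013) and at 299 and 288 CPM against 471 and 532 CPM in the control line (-0.77 ± 0.14, adjusted p = 0.00788). Asns stood at 57.6 and 40.5 CPM against 104 and 99.0 CPM in the miR-148a line (-1.07 ± 0.15) and at 72.2 and 72.8 CPM against 127 and 125 CPM in the control line (-0.80 ± 0.15). These levels are of mRNA, while ATF4 is set largely by translation.

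Myc, which also drives genes of translation, stood at 78.1 and 75.7 CPM with anti-IgM against 335 and 315 CPM unstimulated in the miR-148a line, and at 55.4 and 137.3 CPM against 257 and 296 CPM in the control line. Its log2 fold changes were -2.08 ± 0.32 and -1.50 ± 0.31. Chac1, an ATF4 target that degrades glutathione, had log2 fold changes of -2.31 in the miR-148a line and -1.18 in the control line. Whether these genes have a part in the fall of the synthetases was not tested.

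Genes of other steps of tRNA supply were counted in the same way. Of 14 genes of tRNA maturation and export, 8 fell and 1 rose in the miR-148a line (median -0.49), beside 14.0% of all genes that fell and 14.7% that rose, and 7 fell and 1 rose in the control line (median -0.41), beside 7.45% and 9.60%. Trmt61a, a tRNA methyltransferase subunit, had -1.24 and Xpot, which exports tRNA from the nucleus, -1.11 in the miR-148a line. Trnt1, which adds the CCA end, had -0.90 and Xpot -0.74 in the control line. Of 13 genes of RNA polymerase III, its repressor Maf1 among them, 4 fell and 1 rose in the miR-148a line (median -0.30). In the control line 3 fell and 1 rose (median -0.21). Polr3e had -1.14 and -0.83 and Polr3d -1.03 and -0.75 in the miR-148a and control lines. Maf1 stood at 62.2 and 63.3 CPM with anti-IgM against 45.5 and 45.7 CPM unstimulated in the miR-148a line. Its control line values were 78.2 and 72.7 CPM against 59.4 and 54.1 CPM. With the block 7 of the 13 fell and 2 rose in the miR-148a line, beside 23.3% and 22.8% of all genes. In the control line 4 of the 13 then fell and 1 rose, beside 17.2% and 17.6% of all genes. Of the 14 genes of tRNA maturation and export, the block called 11 lower and 1 higher in the miR-148a line. It called 10 lower and 1 higher in the control line.

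Of 7 genes for synthetase partners and the mitochondrial amidotransferase, 2 fell in each line, beside 14.0% of all genes in the miR-148a and 7.45% in the control line. They were the complex scaffold Aimp2 with -0.91 and -0.46 and Eef1e1 with -0.89 and -0.63 in the miR-148a and control lines (list medians -0.21 and -0.13). The block also gave 2 in each line, beside 23.3% and 17.2% of all genes. Of 7 aminoacyl-tRNA and peptidyl-tRNA hydrolases, 1 fell in the miR-148a line (Aarsd1, -0.45). Of 6 cytosolic elongation factor genes 1 fell in the miR-148a line (Eif5a, -0.48). Of 6 mitochondrial translation factor genes, the initiation factors Mtif2 and Mtif3 among them, 1 fell there (Tsfm, -0.44). Of 6 selenocysteine tRNA genes 1 did (Sephs1, -0.34). Each of these 4 shares is near the 14.0% of all genes that fell. With the block these counts were 1, 3, 3 and 4, beside 23.3% of all genes, and the list medians without it were -0.23, -0.16, -0.20 and -0.36. In the control line edgeR called 0 genes in each of these 4 lists, and 1 gene in each had an unadjusted p under 0.05. Medians there were -0.17, -0.10, -0.17 and -0.18. With the block it called lower 1 hydrolase, 1 cytosolic elongation factor, 2 mitochondrial translation factor and 0 selenocysteine genes, beside 17.2% of all genes. The most abundant member of each list was Aarsd1 at -0.31 ± 0.10, Eef1a1 at -0.10 ± 0.08, Tufm at -0.16 ± 0.10 and Sephs2, which makes selenophosphate, at -0.26 ± 0.13.

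Between the lines with anti-IgM, the miR-148a line had the lower level in 18 of 20 cytosolic genes, and in 5812 of 11291 genes tested. However, 0 of the 36 members passed the test, beside 2.52% of all genes. The median log2 difference was -0.29 over the cytosolic, -0.12 over the mitochondrial and -0.01 over all genes. Yars came nearest, at -0.46 ± 0.12 (adjusted p = 0.088), with 104 and 84.2 CPM in the miR-148a line against 123 and 134 CPM in the control line. Unadjusted p-values were under 0.05 in 12 cytosolic and 3 mitochondrial genes, and the groups did not overlap, with the miR-148a line lower, in 16 and 7, as in 22.1% of all genes.

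The calls in this comparison depended on how the sequencing run was handled, on the test used and on single libraries. With the run as a block, 16 members were lower in the miR-148a line, beside 8.24% of all genes. They were Aars, Cars, Dars, Eprs, Gars, Hars, Iars, Kars, Lars, Mars, Nars, Tars and Yars among the 20 cytosolic genes, and Nars2, Rars2 and Yars2 among the 16 mitochondrial. DESeq2 called 5 lower (Aars, Iars, Lars, Tars and Yars), beside 1.84% of all genes it gave an adjusted p. Within the first run, which holds replicate 1 of every group, the median difference over the cytosolic genes was -0.18, and within the second run it was -0.45, on the log2(CPM + 1) scale. Anti-IgM replicate 2 of the miR-148a line, in the second run, was the lowest of the 8 libraries in 19 of 20 cytosolic and 8 of 16 mitochondrial genes. With the block and without that library 1 member, Lars, was called lower in the miR-148a line, 1 of 36 beside 2.64% of all genes. With no block and without anti-IgM replicate 1 of that line 3 were (Nars, Tars and Yars), beside 0.979% of all genes.

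**Figure D5:**
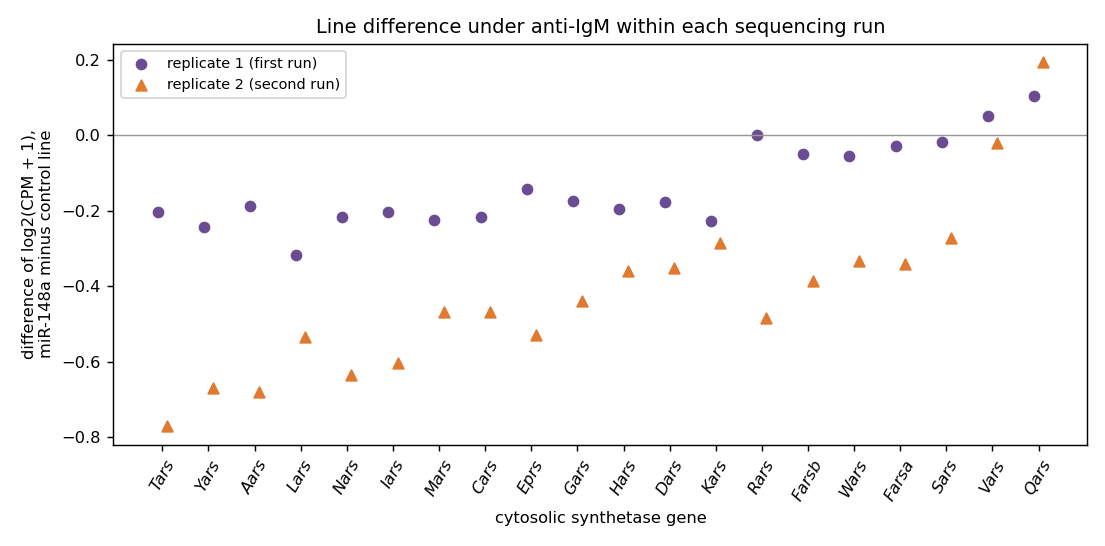
The difference of log2(CPM + 1) between the anti-IgM libraries of the miR-148a line and of the control line for each cytosolic gene, within the first run (circles, replicate 1) and within the second run (triangles, replicate 2). The difference is below 0 in both runs for 18 of 20 genes, and lower in the second run for 19, all but Qars.

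Unstimulated, 0 members differed between the lines, beside 0.487% of all genes, and 0 had an unadjusted p under 0.05. The median log2 difference was -0.14 over the cytosolic and -0.10 over the mitochondrial genes, against 0.01 over all genes. The miR-148a line had the lower level in 18 of 20 cytosolic genes here too, in both runs in 17. Over all genes it did in 5498 of 11291 tested. The groups did not overlap, with the miR-148a line lower, in 12 cytosolic and 5 mitochondrial genes, as in 21.2% of all genes. With the block 0 members were called as well, beside 7.29% of all genes, and DESeq2 called 0. With the block and without anti-IgM replicate 2 of the miR-148a line 1 member, Yars, was called lower, beside 4.85% of all genes. Without the block Yars had the lowest adjusted p, at -0.26 ± 0.12 (adjusted p = 0.44), with 182 and 185 CPM in the miR-148a line against 216 and 223 CPM in the control line.

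The response to anti-IgM was not shown to differ between the lines for any member. The interaction was called for 0 of 36 members by edgeR, beside 0% of all genes, for 0 members with the block, beside 0.0974% of all genes, and for 0 members by DESeq2. The log2 fold change was lower in the miR-148a line in 17 of 20 cytosolic genes, and in 6069 of 11291 genes tested. The cytosolic median of the interaction was -0.20. It was -0.05 without anti-IgM replicate 2 of the miR-148a line and -0.34 without anti-IgM replicate 1 of that line. Of all 36, 1 had an unadjusted p under 0.05, Nars2, at -0.45 ± 0.18. Within runs the cytosolic median of the interaction was -0.06 in the first run and -0.31 in the second.

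The microRNA that names the line, mouse miR-148a-3p, is printed from RefSeq with its seed, bases 2 to 8, in capitals, because the line comparison raises whether synthetase transcripts hold matches to it.
miR-148a-3p, chr6:51269829-51269850, minus strand: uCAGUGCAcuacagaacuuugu
The longest annotated 3' UTR held a match to this seed (TGCACTG) in 4 of 36 members, Iars2, Nars, Tars and Wars, or 11.1%, against 15.3% of 10460 tested genes. The UTRs of the members were shorter, with a median of 526.5 bases against 1169.5. Of the 4, Tars and Nars had line differences of -0.48 and -0.41 with anti-IgM, Wars -0.20 and Iars2 -0.06, and 0 of them passed the test. Tars and Nars were called lower in this comparison with the block, among 16 members, beside 8.24% of all genes. DESeq2 called Tars among 5 members, beside 1.84% of all genes it gave an adjusted p. The other members called in either fit held no match. Whether the matches act on these transcripts was not tested.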

How the data were processed

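PolyA-selected RNA of 8 libraries was sequenced from directional libraries, per the labels' protocols. The authors deposited 1 table of expected counts (estimated counts that need not be whole) per gene symbol, not normalised. The tools named in the submitters' processing notes were TopHat2 2.0.13 and Bowtie2, cutadapt, Partek 6.15.0730, CASAVA 1.8 and edgeR, with builds mm10 and GRCm38. Which annotation was counted, and whether by strand, is not given in the sources. Reads of overlapping genes may therefore be shared.

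Of 24081 rows, 27 whose names had become dates (0.213% to 0.235% of counts) were left out. Counts were rounded and tested with edgeR 4.0.16 (R 4.3.3; quasi-likelihood F test, filterByExpr, TMM, all 8 libraries, 4 group means), adjusted by Benjamini-Hochberg over 11291 genes, threshold 0.05. Standard errors are the log2 fold change divided by the root of F. DESeq2 1.42.0, other scalings, no filter, the 4 libraries compared and leaving out each library were alternatives. The code was tested on simulated data. Floors of 3 counts cover counting error only. Totals of 5810227 to 18660373 counts limit precision for low genes. In the first run depth went with treatment. The anti-IgM libraries there held 5810227 (control line) and 5977803 (miR-148a line) counts, against 18660373 and 13455855 unstimulated. Totals in the second run were 10524385 to 13242205. Nothing in the labels says that replicates were separate cultures, so p-values reflect only how these libraries varied, possibly for technical reasons.

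Replicate numbers follow the run prefixes in the labels, 1 run per number. Deviations from the group means correlated between same-numbered libraries of every pair of groups (r = 0.495 to 0.569 over genes, which are not independent), so the numbers pair the libraries by run. Replicates differed by more than sampling noise (mean chi-square per gene 9.40 to 13.6).

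The members and lists were chosen with earlier results of these data known. Named with values per library were the 6 called members with the largest change in each response, Wars, Lars2, Gars, Kars, Vars and Qars, and Atf4, Asns and Myc; from each list up to 2 called members; Mars2 and Sars2 were added after their values were seen. RPKM used the main coding transcript of GENCODE M21, promoters and the microRNA RefSeq.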

Additional observations from a re-analysis of the deposited data

How the results depend on the processing

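No called member changed direction under any alternative. With the replicate number as a block, 26 members were called in the miR-148a response, against 19 without it. The control response had 23 against 11, and the line difference with anti-IgM 16 against 0. Among all genes, 5205, 3929 and 1822 were called with the block, against 3238, 1925 and 284 without it. With the block and anti-IgM replicate 2 of the miR-148a line left out, an alternative chosen after seeing the data, the counts were 24 in the control response, 1 in the line difference with anti-IgM (2.64% of all genes were lower) and 1, Yars, in the unstimulated line difference (4.85%). DESeq2 called 5 in the line difference with anti-IgM. Leaving out 1 library at a time gave 12 to 23 in the miR-148a response, 3 to 13 in the control response, 0 to 3 in the line difference with anti-IgM, and 0 in the unstimulated line difference and the interaction; the lone library left in a group is assumed to vary like the other groups. The other scalings, DESeq2, no filter and the 4 libraries compared gave 15 to 21 called members in the miR-148a response. In the control response they gave 9 to 16. Among all genes they called 2735 to 3300 and 1558 to 2216. Of the 19 and 11 called members, 14 to 19 and 9 to 11 kept their call. Other scalings moved the median of all genes by at most 0.073 (log2). Rars lost its call in the miR-148a response under 10 of 16 alternatives and Vars under 8, and in the control response Nars2 under 10 and Vars under 9. Depth limits the mitochondrial genes most, since Pars2 stood at 6.05 to 7.98 CPM.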
